A study of Mus musculus with 4 samples.

Results

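The genes described here are those of cyclic nucleotide signalling that lay nearest to a BCL6 peak in mouse adipocytes. BCL6 is a zinc finger protein that represses transcription. They were chosen by name alone, as every peak whose nearest gene has a symbol beginning with Pde, Adcy, Akap, Prka, Adra, Adrb or Adora, at any distance. The rule found 30 peaks among the 5741 of both lists, 6 of 1785 in inguinal (subcutaneous) fat, or 0.336%, and 24 of 3956 in perigonadal (visceral) fat, or 0.607%. By symbol they belonged to 23 genes, of which 3 had peaks in both depots, 3 in inguinal fat alone and 17 in perigonadal fat alone. Among the 17 is Adrbk1. The inguinal list calls this gene Grk2 and gives it a peak of 7.52, which the name rule leaves out. Of all protein-coding genes 6.15% were nearest to an inguinal peak and 12.3% to a perigonadal peak. In numbers these were 1346 and 2689 of 21900 genes, with 3379 nearest to a peak in either list. The set had 6, 20 and 23 genes in the same order. Over all genes too, most of those with a peak had it in a single list.

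All samples came from C57BL/6 mice that carried Adipoq-Cre and Sun1-sfGFP-myc, a Cre-dependent tag of the nuclear envelope. The Adipoq promoter drives the Cre in fat cells, so beads against the myc epitope took up adipocyte nuclei, which had been fixed with disuccinimidyl glutarate and formaldehyde. Each of the 2 depots had 1 BCL6 library, made with a custom guinea pig antibody, and 1 input library, which was not analysed here. The labels give no age, sex, treatment or number of mice, and a single BCL6 library per depot leaves no replicate against which to judge how the depots differ. Of 6 adipocyte marker genes, Lep was nearest to a peak in both lists and Cidec in the inguinal list, while Adipoq, Plin1, Fabp4 and Pparg were nearest to none; a map of BCL6 does not measure expression, so the cell type was not checked by these values.

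In a fat cell, noradrenaline acting on beta-adrenergic receptors activates adenylyl cyclases, which make cyclic AMP. Cyclic AMP releases the catalytic subunits of protein kinase A, which phosphorylate perilipin and hormone-sensitive lipase and so start lipolysis. Phosphodiesterases break the messenger down, and insulin restrains lipolysis largely through phosphodiesterase 3B. Anchoring proteins hold protein kinase A at particular membranes and organelles. The alpha-2 adrenergic and the A1 adenosine receptors inhibit the cyclases. The name rule also takes in AMPK, an energy sensor that binds AMP and ATP and is not a cyclic nucleotide kinase, and alpha-1 receptors, which signal mainly through calcium.

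The first question was how prominent these sites were in each list. In the inguinal list the 6 peaks were low, with deposited scores of 7.52 to 9.03 (median 8.27), where the median of all peaks was 9.03 and the tallest reached 200.1. The 24 perigonadal peaks scored between 7.05 and 25.6 (median 9.70), where the median of all peaks was 8.82 and the tallest reached 260.1. The score is the authors' value for each peak and is scaled within its own list, so levels were not compared between depots. Divided by the list's smallest step it gives a number of sequenced tags, 10 to 12 for the inguinal and 8 to 29 for the perigonadal peaks. Of the inguinal peaks 0 of 6 rested on more than 12 tags (Wilson 95% interval 0 to 39%), against 41.3% of that list, which is just above the interval. Of the perigonadal peaks 5 of 24 did, or 20.8% (Wilson 95% interval 9.24 to 40.5%), against 24.0% of that list, which is within the interval.

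**Figure D1:**
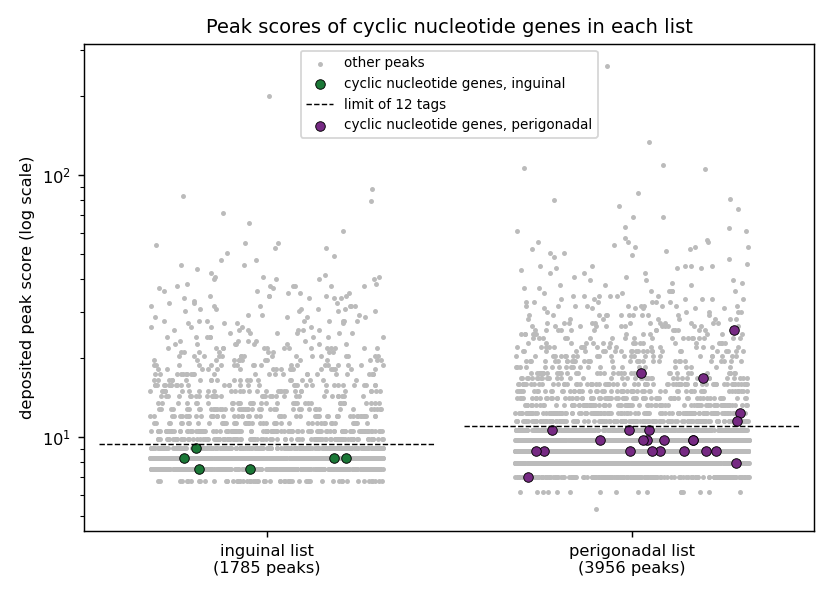
Deposited peak score (log scale) of each peak in the inguinal and the perigonadal list, with the peaks of cyclic nucleotide genes in colour, all other peaks in grey (sideways spread is for display) and a dashed line just above 12 tags. The 6 inguinal peaks lie below the line, and 5 of the 24 perigonadal peaks lie above it, led by Prkag2 at 25.6.

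In the perigonadal list kinase subunit genes held the tallest sites of the set, and in the inguinal list they had none. The highest score, 25.6 in the perigonadal list, belonged to Prkag2, the gene of the gamma-2 subunit by which AMPK senses AMP and ATP. This peak (chr5:25007003-25007187, mm10) rested on 29 tags and ranked 151 in its list, with a Poisson 95% interval of the score from 17.1 to 36.7. It lay in intron 3 of 15 of a long Prkag2 transcript and 11.3 kb upstream of the promoter of a shorter one. None of the other 6 AMPK subunit genes was nearest to a peak in either list.

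Next came a pair of intergenic sites upstream of Prkar2b, which encodes RII-beta, the main regulatory subunit of protein kinase A in adipocytes. They lay 34.0 kb (chr12:32095167-32095351) and 47.9 kb (chr12:32109093-32109277) from the promoter, 13.9 kb apart. Their scores were 16.7 and 17.6, on 19 and 20 tags, with Poisson intervals of 10.1 to 26.2 and 10.8 to 27.2. Both had a low focus ratio, a fraction deposited for each peak, with 0.606 and 0.697 against a list median of 0.833. The nearest inguinal peaks of any gene were 614 and 628 kb away. Prkar1b, the gene of another regulatory subunit, had a perigonadal peak of 8.82 on 10 tags in intron 4 of 10, inside a LINE repeat. The remaining 4 protein kinase A genes, among them Prkaca for the main catalytic subunit, were nearest to no peak.

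Adenylyl cyclases make cyclic AMP, and 2 of the 3 genes that the name rule found in both depots belong to this family. Adcy3, a cyclase well expressed in fat whose loss causes obesity, had 3 peaks, the most of any gene in the set, and all lay in intron 2 of 21. In perigonadal fat they scored 12.3 at chr12:4159343-4159527 (14 tags) and 9.70 at chr12:4140995-4141179 (11 tags), 25.3 and 6.93 kb from the promoter. In inguinal fat the peak at chr12:4162978-4163180 scored 8.27 (11 tags), 28.9 kb from the promoter. The inguinal centre lay 3.64 kb from the taller perigonadal one, the closest approach of the 2 lists at any of these genes, and the peaks did not overlap.

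Adcy5, a cyclase best known from heart and striatum, had peaks in intron 1 of 20 in both depots. The perigonadal one scored 8.82, 2.21 kb from the promoter (chr16:35157753-35157937), and the inguinal one 9.03, 14.3 kb from it in a SINE repeat (chr16:35169843-35170045). Their centres were 12.1 kb apart. Adcy8, a calcium-stimulated cyclase, had a perigonadal peak of 7.93 in intron 8 of 16, 159 kb from its promoter. No peak was assigned to the other 7 cyclase genes.

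Phosphodiesterases, which degrade cyclic AMP and cyclic GMP, formed the largest family, with 26 genes bearing the name. The count goes by name and so takes in genes whose products do not degrade cyclic nucleotides. Among them are Pde4dip, a centrosome and Golgi scaffold, and Pde12, a mitochondrial enzyme that acts on RNA tails. Inguinal peaks were assigned to 2 of the 26 and perigonadal peaks to 5, against 6.15% and 12.3% of all protein-coding genes. No gene was common to both lists, and 7 had a peak in either. Over all protein-coding genes 1346 had an inguinal, 2689 a perigonadal and 3379 either peak, so most had it in a single list. In inguinal fat the genes were Pde8b and Pde3a. Pde8b, a cyclic AMP-specific enzyme of high affinity, had 8.27 in intron 1 of 18. Pde3a, the cGMP-inhibited relative of Pde3b, had 7.52 at 12.2 kb upstream. In perigonadal fat Pde11a scored 10.6 in intron 1 of 19 (chr2:76294321-76294505). Pde1a, a calmodulin-dependent enzyme, had peaks of 9.70 and 8.82 in intron 2 of 15, 21.7 kb apart. The cyclic AMP-specific Pde4b and Pde4d had 1 assigned peak each, of 8.82, at 93.8 and 117 kb from their promoters.

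Pde10a, which degrades both messengers, had the only peak of the set within 1 kb of a promoter. It scored 9.70 at chr17:8801030-8801214, 0.623 kb upstream, and a second peak of 8.82 at chr17:8802693-8802877 lay 1.04 kb downstream in intron 1 of 21. Both were perigonadal, and their centres were 1.66 kb apart. The promoter lies between them. It is an internal one, since Pde10a as RefSeq draws it spans chr17:8525187-8986648 and both peaks lie inside the gene. The 250 bases before its start site are shown because they are what the pair flanks. They come from RefSeq on GRCm38.p6, the assembly also called mm10, and occupy chr17:8801495-8801744 on the plus strand, beginning 281 bp beyond the end of the upstream peak.
Pde10a: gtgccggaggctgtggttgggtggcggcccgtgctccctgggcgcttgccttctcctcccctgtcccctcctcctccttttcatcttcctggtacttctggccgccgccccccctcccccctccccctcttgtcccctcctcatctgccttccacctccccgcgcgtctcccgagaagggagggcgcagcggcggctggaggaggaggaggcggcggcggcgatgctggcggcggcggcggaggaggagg
The stretch is 72.8% G and C and is printed without capitals because neither of the motifs searched for occurs in it.

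The motifs were TTCCTAGAA, close to the sequence BCL6 is known to bind, and the looser TTCNNNGAA, a form shared with STAT proteins that contains the first. They were searched on both strands in RefSeq promoter windows from 250 bases before to 50 after each start. Of the genes of the set with a peak, 17 had a window in the table and 4 of these, or 23.5%, had a TTCNNNGAA match, against 8.92% of 17492 protein-coding genes. The Wilson interval of 4 of 17 runs from 9.56 to 47.3%, and these genes had 2.29 windows each against 1.22, so that more sequence was searched. Per window the shares were 15.4% of 39 and 7.69% of 21263, and 3 of the 6 matching windows overlap at a single Pde8b site. Over all 64 genes of these families with a window, with or without a peak, 17.2% had a match. The stricter motif was found in 1 of the 17 genes, Pde8b, and in 0.44% of protein-coding genes. The matches are shown because they are the only ones among genes with a peak, each with the matching bases in capitals and 10 bases on either side, read along the gene's strand.
Adcy3: acgcctcaccTTCAGGGAAgatacgtccc
Pde4b: ctttgagaatTTCCCAGAAagcaataaat
Pde8b: ttcctaagagTTCTAGGAAggcgttgctc
Pde11a: acagagactcTTCCAGGAAccgcctggca
The Adcy3 site lies at chr12:4133149-4133177 and the Pde4b site at chr4:102569900-102569928, both on the plus strand, and the Pde8b site at chr13:95250443-95250471 and the Pde11a site at chr2:76339070-76339098, both on the minus strand. The capitals of Pde8b are the stricter motif read on the opposite strand. None of these windows held a peak of its gene, since the peaks of Adcy3, Pde8b, Pde11a and Pde4b lay at least 6.93 kb from the nearest promoter. The matches therefore describe the promoters and not the called peaks, whose own sequence was not used here.

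Anchoring proteins, which tether protein kinase A, had 6 peaks, all in introns. The 4 perigonadal ones scored from 8.82 to 11.5, at or above the list's median of 8.82, and the 2 inguinal ones, at 7.52 and 8.27, below its median of 9.03. Akap2 had 1 in each depot, 11.5 in perigonadal fat (chr4:57803650-57803834, 13 tags) and 7.52 in inguinal fat (chr4:57835711-57835913, 10 tags), 32.1 kb apart. Both lay upstream of the Akap2 promoter, at 41.5 and 9.44 kb, inside intron 6 of 8 of Pakap, a longer gene of that locus in RefSeq, and the inguinal one lay in a DNA transposon. Akap7 had an inguinal peak of 8.27 in its last intron. In perigonadal fat Akap13 scored 10.6 in intron 2 of 36, and Akap9, a Golgi and centrosome anchor, 9.70 in intron 13 of 47. The peak assigned to Akap12, or gravin, scored 8.82 and lay 106 kb upstream within the last intron of Mthfd1l, a gene of mitochondrial folate metabolism. Of 15 anchoring protein genes in the gene table, which does not list Akap2 under that number, 4 had a peak.

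Of 13 adrenergic and adenosine receptor genes 2 were nearest to a peak, or 15.4%, which is also the share of all protein-coding genes in either list (15.4%). Among the 9 adrenergic receptor genes 2 were nearest to a perigonadal and 0 to an inguinal peak. Both were alpha-1 receptors, Adra1b with 9.70 at 88.6 kb upstream and Adra1d with 7.05, on 8 tags, in its single intron. Of 4 adenosine receptor genes 0 had a peak in either list. PACAP, a neuropeptide that raises cyclic AMP, had a perigonadal peak of 8.82 assigned to its gene Adcyap1 at 753 kb, in a LINE repeat, and its receptor gene Adcyap1r1 1 of 9.70 at 62.5 kb, in an LTR repeat.

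The receptor kinase GRK2, which desensitises beta-adrenergic receptors, appeared under 2 names, since the perigonadal list calls the gene Adrbk1 and the inguinal list Grk2. Only the older symbol meets the name rule. The Adrbk1 peak scored 10.6 (12 tags), 11.2 kb upstream at chr19:4317334-4317518, and lay in the last exon of the neighbouring Kdm2a, a histone demethylase gene, in its 3' untranslated part. The inguinal Grk2 peak scored 7.52 (10 tags), 25.8 kb upstream at chr19:4331964-4332166 in intron 12 of 20 of Kdm2a. The 2 sites did not overlap.

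**Figure D2:**
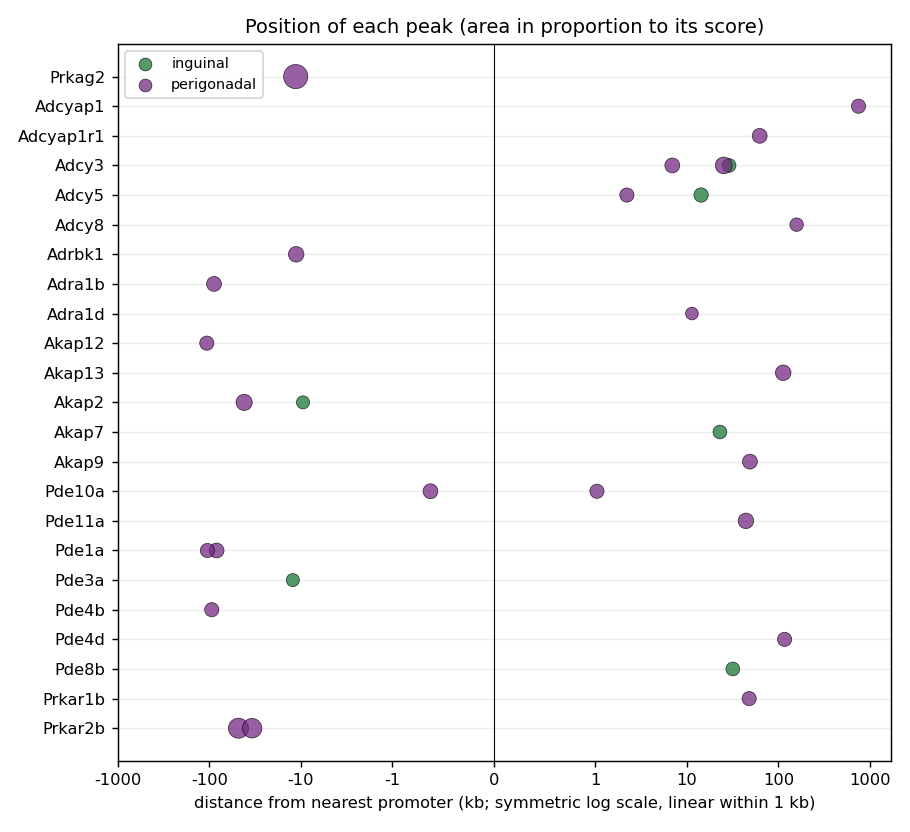
Signed distance of each of the 30 peaks from its nearest promoter (kb, symmetric log axis that is linear within 1 kb), with 1 row per gene, green for inguinal and purple for perigonadal peaks and the area of a point in proportion to its score. Adcy3, Adcy5 and Akap2 are the 3 genes with points of both colours, and Pde10a has the only point within 1 kb.

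Of 11 genes of the classical route from noradrenaline to protein kinase A in fat cells, 3 were nearest to a peak, or 27.3%, against 15.4% of all protein-coding genes. These were Pde4b, Pde4d and Prkar2b, each in perigonadal fat. The 11 include no adenylyl cyclase gene. The 3 genes with a peak are 520, 1302 and 103 kb long, and of all genes over 100 kb 39.8% had a peak. Pde3b, at 123 kb, had none. No peak was assigned in either list to the beta-adrenergic receptor genes Adrb1 and Adrb3, the inhibitory receptor genes Adra2a and Adora1, Pde3b, Pde4a, Prkaca or Akap1, which anchors protein kinase A at mitochondria. Measured to the gene body, the nearest inguinal peak of any name lay 154 kb from Adra2a, 309 kb from Adrb1, 568 kb from Adrb3 and 245 kb from Pde3b. In the perigonadal list the distance was 154 kb for Adra2a, 309 kb for Adrb1 and 83.3 kb for Pde3b. The closest case was Adrb3, the beta-3 receptor typical of mouse adipocytes, 23.2 kb from a perigonadal peak of 7.93 assigned to Got1l1. An absent peak means that none was called, not that BCL6 was absent.

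A second question was whether BCL6 occupied the same positions in both depots. No peak of the set overlapped a peak of the other list, 0 of 6 inguinal (Wilson interval 0 to 39.0%) and 0 of 24 perigonadal peaks (0 to 13.8%). Over the whole lists 28.5% of inguinal and 12.8% of perigonadal peaks did, and both values lie inside those intervals. Sharing was less common among low peaks in general. Of all inguinal peaks of 10 to 12 tags, the range of the 6, 6.87% were shared, and of all perigonadal peaks of 8 to 12 tags, the range of 19 of the 24, 3.14%. The 5 perigonadal peaks above that range, at Prkag2, Prkar2b, Adcy3 and Akap2, were unshared as well. Of the 508 shared perigonadal peaks, 94 had 8 to 12 tags, a range that held 2989 of the 3956 peaks. More than 12 tags were found in 950 peaks, and their shared portion, not computed as such, is therefore above 12.8%. Neither 12.8% nor 3.14% is thus a matched share for these 5. A peak of the other list lay within 50 kb of 8 of the 30 peaks, a count that was not made over all peaks and so describes these sites only.

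It was also asked where the sites lay relative to genes. Introns held 5 of 6 inguinal peaks (83.3%, interval 43.6 to 97.0%) and 16 of 24 perigonadal peaks (66.7%, 46.7 to 82.0%), against 47.0% and 47.1% of the lists. First introns held 2 of 6 and 5 of 24, against 15.6% and 14.0%. The authors' annotation put 1 of 6 and 6 of 24 in intergenic sequence, against 43.5% and 42.9%. Within 1 kb of a promoter lay 0 of 6 and 1 of 24, against 7.06% and 6.22%. Within 50 kb lay 6 of 6 and 14 of 24, against 64.0% and 62.4%. Of the 10 perigonadal peaks beyond 50 kb, 6 were still inside the gene they were assigned to. Over both depots 20 of the 30 peaks lay inside their own gene as RefSeq draws it, 4 in a transcript under another gene name and 6 between genes. The 4 include both Akap2 peaks, counted under Pakap because the gene table has no Akap2 entry to place them in. This placement was not counted over all peaks. The Pde4b peak counts as inside its gene, although the authors' annotation calls it intergenic. Annotated repeats held 3 of 6 inguinal and 4 of 24 perigonadal peaks, against 21.1% and 24.0%.

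Set against the gene table, 22 of 80 protein-coding genes of these families, or 27.5%, were nearest to a peak in either list. Of all protein-coding genes 15.4% were. In single lists the counts were 5 of 80 in inguinal fat, against 6.15% of all genes, and 19 of 80 in perigonadal fat, against 12.3%. By family the share was 26.9% for phosphodiesterases, 30.0% for adenylyl cyclases, 26.7% for anchoring proteins, 33.3% for protein kinase A subunits, 22.2% for adrenergic receptors and 14.3% for AMPK subunits. The 80 include Grk2, which entered through its older name. Its inguinal peak, under the newer name, is not among the 5, whereas the shares of all genes were counted by Entrez number.

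**Figure D3:**
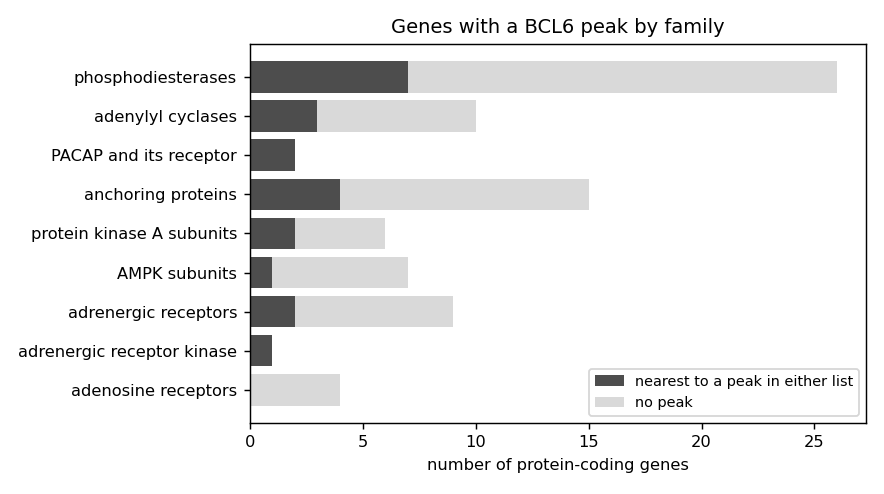
Number of protein-coding genes in each family, with dark bars for genes nearest to a peak in either list and light bars for genes nearest to none. Phosphodiesterases have 7 of 26 genes with a peak, adenylyl cyclases 3 of 10, anchoring proteins 4 of 15 and adenosine receptors 0 of 4.

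Genes with a peak were long. Their median length was 152 kb, from 8.3 kb for Adcyap1 to 1302 kb for Pde4d, against 35.0 kb for the 58 genes without a peak. The same order held over all protein-coding genes, with medians of 42.8 and 14.9 kb. Among genes of up to 20 kb, which include Adrb1 and Adrb3, 2 of 23 had a peak (8.7%), against 8.71% of all genes of that length. Between 20 and 100 kb 4 of 30 had one (13.3%), against 18.1%. Above 100 kb 16 of 27 did (59.3%), against 39.8%. The part that length plays in the share of 27.5% was not tested.

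**Figure D4:**
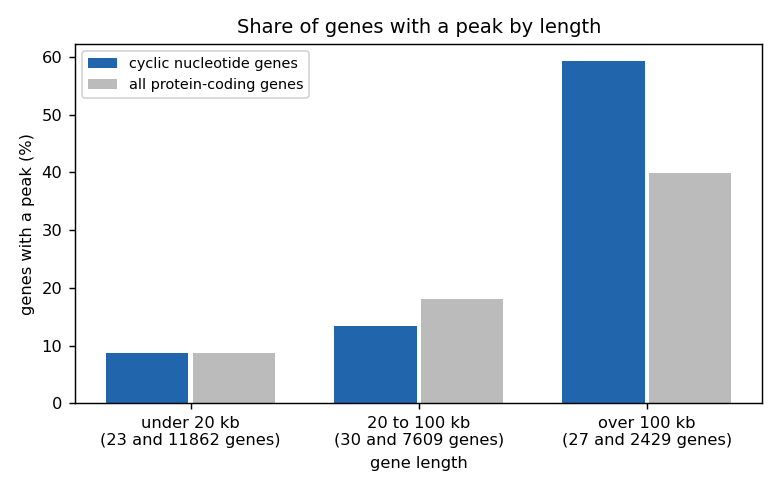
Share of genes nearest to a peak in either list (%), by gene length, for the 80 cyclic nucleotide genes (blue) and all protein-coding genes (grey). In both sets the bars rise with length, to 59.3% of 27 and 39.8% of 2429 genes above 100 kb.

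Assignment to the nearest promoter left out several sites within these genes. In inguinal fat a pair of peaks 665 bp apart in intron 1 of 15 of Pde3a scored 24.8 (chr6:141333298-141333500, 33 tags, Poisson interval 17.1 to 34.9) and 14.3 (chr6:141332633-141332835, 19 tags), but were assigned to the non-coding gene Gm10400. Both were taller than each of the 6 inguinal peaks that the name rule found, and neither had a perigonadal partner. In perigonadal fat, peaks within Pde4d (9.70, intron 3 of 16) and Pde2a (8.82, intron 2 of 30) were assigned to the microRNA genes Mir582 and Mir139.

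The wider route, 55 genes outside the name rule except for Grk2, had peaks within 50 kb for 3 genes in inguinal and 7 in perigonadal fat, against 4.25% and 8.89% of all protein-coding genes. A peak shared between depots was found at 1 gene, Gnai1, which encodes an inhibitory G protein subunit that lowers cyclase activity. It lay 126 kb from the promoter and scored 12.8 in inguinal (chr5:18234068-18234270) and 33.5 in perigonadal fat, taller than any peak of the set in its list. The next tallest perigonadal peak of this wider route was at Pkig, an inhibitor of protein kinase A (10.6, in intron 2), besides the one at Adrbk1 given above. The next tallest inguinal peaks of this route scored 8.27 each and were all intergenic. The one assigned to Ptger4, a receptor for prostaglandin E2, lay 30 kb from the promoter. That of Gucy1a1, a subunit of the nitric oxide receptor that makes cyclic GMP, lay at 38.3 kb. Those assigned to Ptger3, also a prostaglandin E2 receptor, and Rapgef2, a Rap exchange factor, lay at 100 and 832 kb, outside the count within 50 kb. Of 5 lipolysis genes (Lipe, Pnpla2, Plin1, Abhd5 and G0s2) 0 had a peak in either list at any distance, where 15.4% of all protein-coding genes did.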

How the data were processed

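BCL6 was mapped by chromatin immunoprecipitation and sequencing. The submitters' processing notes name Bowtie 1.2, HOMER and the mm10 genome, and peaks were annotated with HOMER, per the file headers. The inguinal header names a false discovery rate of 0.001 and the perigonadal header no threshold. The deposited peak score was used within its list only, and the deposited focus ratio, a fraction, as a description. Scores were whole multiples of 0.752 (inguinal, 100% of peaks) and 0.882 (perigonadal, 99.9%) within their rounding, which was read as 1 tag. Neither labels nor headers used here give the total to which tags were scaled, so depth is unknown. Intervals are Wilson for shares and exact Poisson for tags. They cover counting error only. Peaks that overlapped by 1 bp or more counted as shared. Genes came from RefSeq on GRCm38.p6 by Entrez number, and all genes with a peak except Akap2 matched. No test was possible with 1 library per depot. Computation used Python 3.11.15, pandas 2.3.3 and scipy 1.17.1, and overlap and tag steps were tested on simulated data.

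The genes, lists and rules were chosen with earlier results of these data known, and the length bands after the values were seen. Named were genes with a shared peak, the 8 tallest peaks per list, genes with 3 or more peaks, peaks within 1 kb of a promoter, route genes such as Adrb3 and Pde3b, and, of the wider route, genes with a shared peak and the 3 tallest peaks per list with their ties. Others complete a family's count. A few items that these rules take in are not reported here by name.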

Additional observations from a re-analysis of the deposited data

How the results depend on the processing

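Restricting the lists to peaks of more than 12 tags left 0 inguinal peaks and 0 genes and 5 perigonadal peaks of 4 genes. Without repeats 3 inguinal peaks of 3 genes were left, and 20 perigonadal peaks of 16 genes. Within 50 kb there were 14 perigonadal peaks of 11 genes, and with the perigonadal list held to the inguinal length 14 peaks of 12 genes. Within 5 kb of a promoter lay 3 perigonadal peaks in place of 1. Counting peaks inside the gene bodies gave 6 and 19, and matching by Entrez number, an alternative chosen after seeing the data, 7 and 24. The number of shared peaks stayed 0 when centres within 500 bp counted as shared. A stricter overlap, more tags or a shorter list could only remove shared peaks, so these settings say nothing about a count of 0. No paired analysis was possible because each depot had 1 BCL6 library and no result comes from a test.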
